A study of Arabidopsis thaliana with 12 samples.

Results

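FATB (AT1G08510) and AT1G24360, called KAR here, act in the fatty acid factory of the plastid. Both members were taken through probes that the platform annotation pairs with exactly 1 gene. This gave 1 probe for each, so 2 genes of the 691 that have such a probe. FATB also appears on 1 probe shared with other genes, and KAR on none. The series holds 12 arrays of total RNA from wild-type Arabidopsis thaliana, ecotype Columbia 0. The 6 pStau arrays are of plants given water for 4 h and then 25 mM staurosporine at pH 5.5 for 4 h, as the labels state the dose. The 6 H2O arrays are of plants given water for 8 h. Staurosporine inhibits many protein kinases. The labels name neither an organ nor an age. Nothing in them ties the arrays of 1 group to different plants, and the p-values below therefore cover the spread between arrays, which could be technical.

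Plants make fatty acids inside plastids, on a small acyl carrier protein (ACP) that holds the growing chain. Each round of growth joins carbon atoms from malonyl-ACP to the chain with a ketoacyl-ACP synthase, after which KAR reduces the new keto group with NADPH, a dehydratase removes water and an enoyl-ACP reductase completes the saturated chain. Stearoyl-ACP desaturases put a double bond into the finished chain. Thioesterases release chains from ACP: FATB prefers saturated chains such as palmitate, which feed waxes, cutin and sphingolipids, and FATA prefers oleate.

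Array medians were 0.169 to 0.392 in pStau and 0.405 to 0.485 in H2O, on the intensity scale of the deposited table, whose unit is not stated, and 12.3% to 17.3% of values in pStau and 11.5% to 13.1% in H2O were exactly 0. Levels below called normalized are log2 intensities after quantile normalization, with a floor of -5.90 for zeros and the lowest values. Within a group, arrays with consecutive numbers (1 and 2, 3 and 4, 5 and 6, called array sets here) resembled each other more than other arrays did (r of deviations from the group mean 0.011 to 0.73 in 6 such pairs and -0.43 to -0.25 in 24 others), so the 6 arrays of a group may hold fewer than 6 independent samples. The organ could not be checked, since none of 6 leaf, 5 root, 2 guard cell and 2 seed markers had a probe of its own. The leaf marker for Rubisco activase shares probes 665 and 1872 with another gene. Probe 665 stood at percentiles 75.5 to 85.0 in pStau and 86.8 to 91.7 in H2O and fell by 0.58 on the normalized log2 scale (limma adjusted p = 0.00236), while probe 1872 was at 0 on 5 pStau and 6 H2O arrays. Their part in the results below was not tested.

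FATB was higher in pStau. Its deposited intensities were 0.228, 0.138, 0.362, 0.204, 0.252 and 0.216 on pStau arrays 1 to 6, against 0.0908, 0.117, 0.272, 0.00209, 0.172 and 0.174 on H2O arrays 1 to 6. The groups overlapped, since H2O array 3 lay above every pStau array except array 3, and H2O array 4 stood far below all others. The mean was 0.233 ± 0.0735 in pStau and 0.138 ± 0.0912 in H2O (SD, n = 6 each). Compared within a replicate number, pStau was above H2O in 6 of 6 numbers. As deposited, 7.43% of the tested probes did the same and 43.1% were lower in all 6 numbers. On the normalized scale described next FATB was again higher in 6 of 6 numbers, as were 18.4% of the tested probes.

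On the normalized scale FATB had levels of -2.26, -2.95, -0.75, -1.37, -1.38 and -1.55 in pStau, against -3.93, -3.50, -2.08, -5.90, -3.16 and -3.18 in H2O. Here pStau arrays 3 to 6 lay above every H2O array, and pStau arrays 1 and 2 lay below H2O array 3. The log2 change was 1.92 ± 0.58 (SE, 95% confidence interval 0.65 to 3.18; 6 arrays a group; limma adjusted p = 0.0237), a 3.78-fold rise. Of the 3256 tested probes, 16.5% were called higher and 18.8% lower, 35.3% in all, so a call by itself does not set FATB apart. That split was 536 higher and 612 lower, and became 183 and 1519 as deposited, 180 and 1628 after setting arrays to an equal total, and 915 and 487 in median-centred arrays. The array measures RNA pooled over cell types, so more cells that express FATB and more FATB RNA per cell cannot be told apart.

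The size of the FATB rise rests in part on H2O array 4, where the probe was at the floor. Without that array the log2 change was 1.46 (limma adjusted p = 0.0259). The size also depended on how low values were handled. Over all 12 arrays it was 1.57 with the floor at the 5th percentile (limma adjusted p = 0.0122). With a pseudocount of 1 in place of the floor it was 0.28 (limma adjusted p = 0.0155). The call itself was fragile. It ended with array sets as a random block (adjusted p = 0.320) and with array sets averaged (adjusted p = 0.112), as deposited (log2 change 1.17, adjusted p = 0.136), and without pStau array 3 (adjusted p = 0.0527). Without array set 5 and 6 it ended too (adjusted p = 0.155). In the averaged fit limma called 3 probes in all, and the unadjusted limma p of FATB was 0.00782. The call held in median-centred arrays and with cyclic loess (limma adjusted p = 0.0294 and 0.0306).

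The rank of FATB among the 3439 probes of its own array needs no scaling between arrays. It stood at percentiles 32.7, 22.8, 70.0, 54.8, 52.6 and 48.7 in pStau, against 16.6, 17.9, 36.2, 13.2, 20.6 and 20.6 in H2O. The probe was thus dim in water, and on pStau arrays 3 to 6 it stood near the middle of the array or above. Those 4 arrays also had the lowest medians of all 12, and the part of that in the change of rank was not tested. By array set, the normalized log2 change was 1.11 for arrays 1 and 2, 2.93 for arrays 3 and 4, which hold the array at the floor, and 1.71 for arrays 5 and 6.

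**Figure D1:**
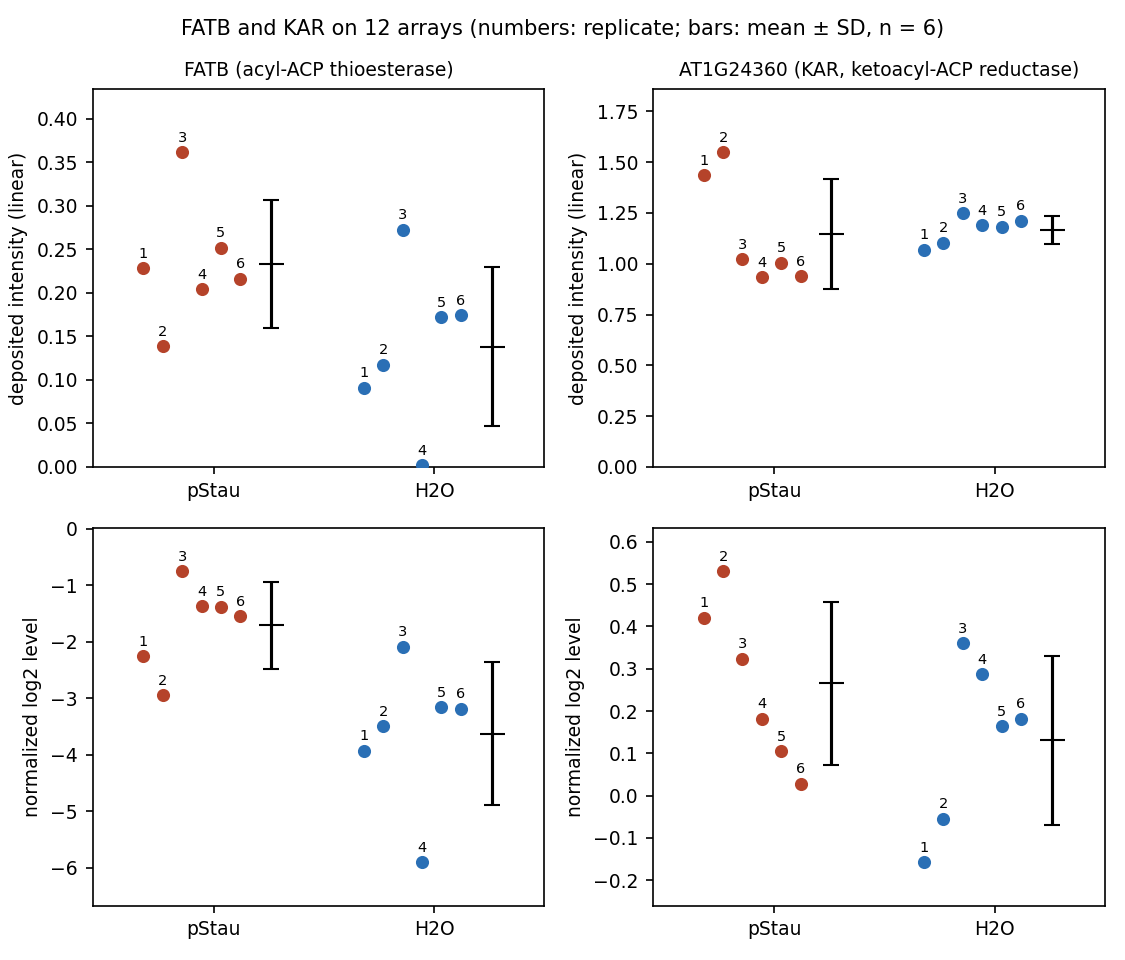
Deposited intensity (top, linear) and normalized log2 level (bottom) of FATB (left) and KAR (right) on 6 pStau and 6 H2O arrays, with each array's replicate number and the mean ± SD beside the points. FATB on H2O array 4 lies at 0.00209, far below the other arrays, and KAR on pStau arrays 1 and 2 lies above all other arrays.

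KAR did not pass the test, and its change differed in sign between array sets. Its deposited intensities were 1.43, 1.55, 1.021, 0.934, 1.004 and 0.938 on pStau arrays 1 to 6, against 1.07, 1.103, 1.25, 1.19, 1.18 and 1.21 on H2O arrays 1 to 6. The pStau arrays 1 and 2 lay above all H2O arrays and pStau arrays 3 to 6 below all of them. The group means were 1.147 ± 0.272 in pStau and 1.167 ± 0.0678 in H2O (SD, n = 6 each), so the pStau arrays were the more spread.

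Normalized levels of KAR were 0.42, 0.53, 0.32, 0.18, 0.11 and 0.03 in pStau, against -0.16, -0.06, 0.36, 0.29, 0.16 and 0.18 in H2O, and the groups overlapped widely. The log2 change was 0.13 ± 0.12 (SE, 95% confidence interval -0.12 to 0.39; 6 arrays a group; limma adjusted p = 0.403). The interval leaves room for a fall to 0.921 of the water level and for a rise to 1.31 of it. By array set the normalized log2 change was 0.58 for arrays 1 and 2, -0.07 for arrays 3 and 4 and -0.11 for arrays 5 and 6. Without arrays 1 and 2 of both groups it was -0.09 (adjusted p = 0.438). The sign was also negative as deposited, at -0.05, and after setting arrays to an equal total, at -0.07, while in median-centred arrays KAR passed at 0.81 (adjusted p = 0.00257). KAR is a bright probe, at percentiles 84.4 to 90.5 in pStau and 81.1 to 88.9 in H2O, and these ranges overlap.

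**Figure D2:**
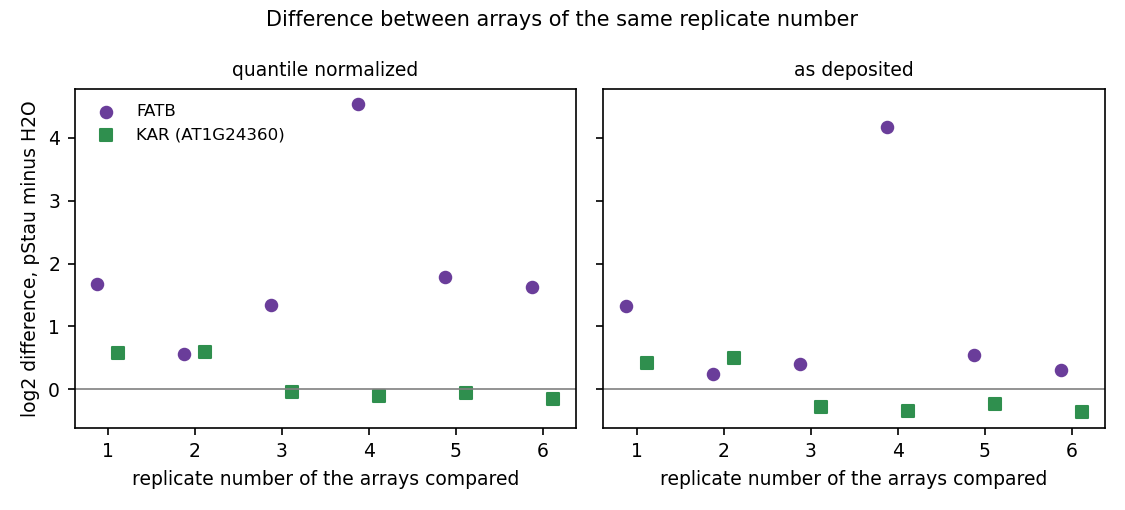
Log2 difference, pStau minus H2O, between the arrays of each replicate number (1 to 6 on the x axis) for FATB (circles) and KAR (squares), on the quantile-normalized scale (left) and as deposited (right). FATB lies above 0 in all 6 numbers on both scales, with number 4 at 4.53 and 4.18, while KAR lies above 0 in numbers 1 and 2 and below 0 in numbers 3 to 6.

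Whether FATB and KAR changed unequally was tested on the log2 ratio of both probes on the same array, in which any factor that multiplies a whole array cancels. Array totals were close (3139 to 3541 in pStau, 3054 to 3562 in H2O), while array medians differed 2.87-fold. A shift that varies with intensity does not cancel between a dim probe and a bright one. Its part in the ratio was not tested. Relative to its H2O mean, the ratio was 0.90, 0.06, 2.05, 1.35, 1.55 and 1.43 on pStau arrays 1 to 6, against -0.01, 0.32, 1.35, -3.18, 0.77 and 0.75 on H2O arrays 1 to 6. H2O array 4 again stood alone, and pStau array 2 lay below 4 of the H2O arrays. The ratio was higher in pStau by 1.22 in the mean, and higher in 5 of 6 replicate numbers, but did not pass an exact two-sided permutation test over the 12 arrays (p = 0.0736, where the smallest possible p is 0.00216). Arrays of the same number compared by an exact sign-flip test gave p = 0.0625. On the quantile-normalized scale the difference was 1.78 and passed (exact p = 0.0195), as it did with cyclic loess, at 2.17 (exact p = 0.0152). Without H2O array 4 the deposited difference was 0.59 (exact p = 0.147). With array sets averaged the deposited difference was 1.22 again (exact p = 0.20, where the smallest possible is 0.10), and when array set 3 and 4 was dropped it was 0.53 (exact p = 0.229). With the floor at the 5th percentile it was 0.75 (exact p = 0.0758). The exact tests that passed treat the 12 arrays as independent, which the array sets put in doubt.

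**Figure D3:**
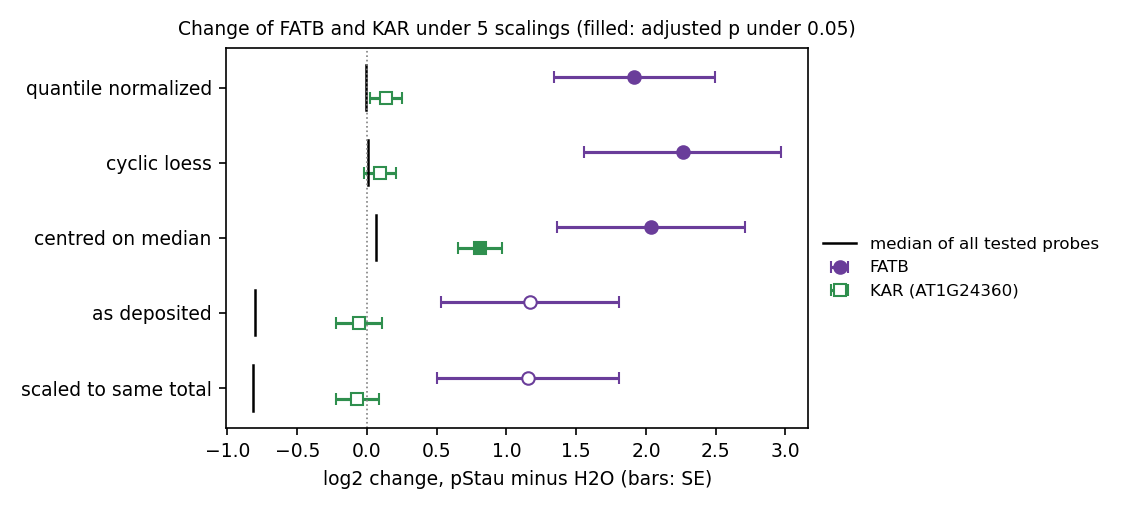
Log2 change, pStau minus H2O, of FATB (circles) and KAR (squares) under 5 scalings of the arrays, with SE bars, filled symbols where the limma adjusted p was under 0.05 and a vertical bar at the median change of all 3256 tested probes. Both genes lie above that median under all 5 scalings. As deposited, with an equal total and median-centred, these distances are the same, since the settings differ only by a factor per array. KAR lies 0.14 above the median after quantile normalization and 0.09 above it with cyclic loess (SE of its change 0.12 and 0.11). The median itself lies at -0.80 as deposited and near 0 after quantile normalization.

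Against the median change of all probes, which was -0.80 as deposited, FATB lay 1.97 higher and KAR 0.75 higher on the log2 scale. After quantile normalization that median was near 0, and FATB lay 1.92 and KAR 0.14 above it. By normalized log2 change, 99.5% of the tested probes lay at or below FATB and 60.0% at or below KAR. That ranking takes no account of spread, and the FATB change includes an array at the floor. By limma p-value FATB ranked 899 and KAR 2160 of the 3256 tested probes.

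The rest of the pathway was thinly covered. Of 38 listed genes of plastid fatty acid synthesis and release, 3 had a probe of their own, 9 were present only on probes shared by several genes and 26 were not measured by a named probe. Among the 3, FATB rose, none fell and 2 did not pass, with a median log2 change of 0.13 over them, while 35.3% of all tested probes were called and their median change was near 0. With array sets as a random block, a fit that estimates the correlation within sets, 0 of the 3 passed (adjusted p = 0.320 for FATB). As deposited, or with an equal total per array, the 1 gene called was lower and was not FATB. That gene was AT5G16230, of the stearoyl-ACP desaturase family. Its deposited intensities were 0.0872, 0.0824, 0.0793, 0.0452, 0 and 0.00995 in pStau, against 0.161, 0.135, 0.0974, 0.0966, 0.180 and 0.155 in H2O. Every pStau array lay below every H2O array, as for 20.2% of the tested probes in a table whose median log2 change was -0.80. After normalization the log2 change was -0.65 ± 0.51 (SE; 6 arrays a group; limma adjusted p = 0.352), while as deposited it was -1.97 and passed (adjusted p = 0.0249). Pyruvate dehydrogenase, acetyl-CoA carboxylase, the ACPs, the ketoacyl-ACP synthases and the enoyl-ACP reductase were not measured by any named probe, nor were the listed genes of plastid glycerolipid synthesis or of wax, cutin and sphingolipid synthesis.

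Probes paired with several genes of the pathway are described as probes, since their signal cannot be given to 1 gene. The thioesterase probe paired with both FATA genes (AT3G25110 and AT4G13050) and no other was lower in pStau. Its deposited intensities were 0.814, 0.873, 0.266, 0.292, 0.429 and 0.433 in pStau, against 1.09, 1.05, 1.08, 1.06, 0.901 and 0.976 in H2O. The groups did not overlap, but 20.2% of the tested probes likewise had every deposited pStau value below every H2O value. It fell by 0.62 on the normalized log2 scale (SE 0.14; 6 arrays a group; limma adjusted p = 0.00794). In median-centred arrays the log2 change was -0.27 and did not pass (adjusted p = 0.139), and with array sets averaged the call ended as well (adjusted p = 0.165). That averaged fit called 3 probes in all. Without array set 3 and 4 the log2 change of the FATA probe was -0.36 and did not pass (limma adjusted p = 0.102). Without array set 5 and 6 it was -0.68 and did not pass either (limma adjusted p = 0.0603). By array set its normalized log2 change was -0.22 for arrays 1 and 2, -1.14 for 3 and 4 and -0.49 for 5 and 6. As deposited, the FATA probe was lower in 6 of 6 replicate numbers, as were 43.1% of the tested probes, and FATB was higher in 6 of 6. It follows that the log2 change of FATB exceeded that of the FATA probe in each number, by 0.50 to 6.04. The largest gap was in number 4, where FATB on the H2O array was at the floor. The contrast of FATB with the FATA probe was chosen after the values were seen and was not tested. A further probe, paired with FATB and both FATA genes, was at 0 on all 12 arrays, although the FATB and FATA probes gave signal on the same arrays.

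Desaturase probes disagreed with each other. Probe 686, paired with AT3G02610 and AT3G02620, had intensities of 0.663, 0.491, 0.149, 0.517, 0.242 and 0.221 in pStau, against 1.015, 0.841, 0.737, 1.14, 0.892 and 0.933 in H2O. It fell by 0.86 on the normalized log2 scale (6 arrays a group, limma adjusted p = 0.0140). Probe 1293, paired with the same genes and with AT5G16230, had intensities of 0.367, 0.492, 0.441, 0.471, 0.845 and 0.819 in pStau, against 0.393, 0.377, 0.356, 0.384, 0.448 and 0.521 in H2O. It was called higher, with a normalized log2 change of 0.96 (6 arrays a group, limma adjusted p = 0.0113), so probes that share AT3G02610 and AT3G02620 were called in opposite directions. Probe 4461, paired with AT3G02630 and AT5G16240, was called higher too, at 1.12 (6 arrays a group, limma adjusted p = 0.0246), but lay at the floor on 3 H2O arrays, and as deposited its log2 change was -0.49. Its size rests on that floor, being 0.095 with the floor at the 5th percentile (adjusted p = 0.288) and 0.049 with a pseudocount instead (adjusted p = 0.0752). The call of probe 4461 also ended in median-centred arrays (0.37), with cyclic loess (adjusted p = 0.0788) and without H2O array 1, 5 or 6 (adjusted p = 0.0505, 0.0529 and 0.0522). The calls of probes 686, 1293 and 4461 ended with array sets averaged (adjusted p = 0.10, 0.168 and 0.122), a fit that called 3 probes in all. As deposited probe 1293 did not pass (0.41, adjusted p = 0.142), nor with an equal total per array (0.39, limma adjusted p = 0.188). Probe 686 did not pass in median-centred arrays (-0.60, limma adjusted p = 0.102). Without array set 5 and 6 the calls of probes 686 and 1293 ended (limma adjusted p = 0.164 and 0.0811). Without array set 3 and 4 the call of probe 1293 ended (limma adjusted p = 0.133).

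The step after KAR, the removal of water, was measured by probes paired with both plastid hydroxyacyl-ACP dehydratase genes (AT2G22230 and AT5G10160). Probe 3526 had intensities of 0.184 to 0.524 in pStau and 0.471 to 0.637 in H2O, with a normalized log2 change of -0.02 ± 0.12 (SE, 95% confidence interval -0.28 to 0.24, limma adjusted p = 0.930). As deposited it was -0.72 and passed (adjusted p = 0.0233), and with an equal total per array -0.73 (adjusted p = 0.0171). The other probe of these genes, 981, was at 0 on 5 pStau and 6 H2O arrays. Probe 1019, paired with the gene of the plastid export protein FAX1 (AT3G57280) and another gene, had a log2 change of 0.31 ± 0.21 (SE, limma adjusted p = 0.282), and -0.93 as deposited, where it passed. On the normalized scale it passed in the other direction without pStau array 2, which stood alone, at 0.50 (adjusted p = 0.00546), and again when array set 1 and 2 was dropped, at 0.50 (adjusted p = 0.00381). Over the 6 tested probes whose genes all belong to the list, 2 rose, 2 fell and 2 did not pass, against 35.3% called among all tested probes. With array sets as a random block the calls of probes 686 and 4461 ended (adjusted p = 0.261 and 0.313), while probe 1293 was still called higher and the FATA probe lower (adjusted p = 0.0419 and 0.0268). In the mitochondrion, which has a small fatty acid synthesis route of its own, the ketoacyl-ACP synthase AT2G04540 had a log2 change of -0.28 ± 0.18 (SE, limma adjusted p = 0.254), and -1.23 as deposited, where it passed.

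**Figure D4:**
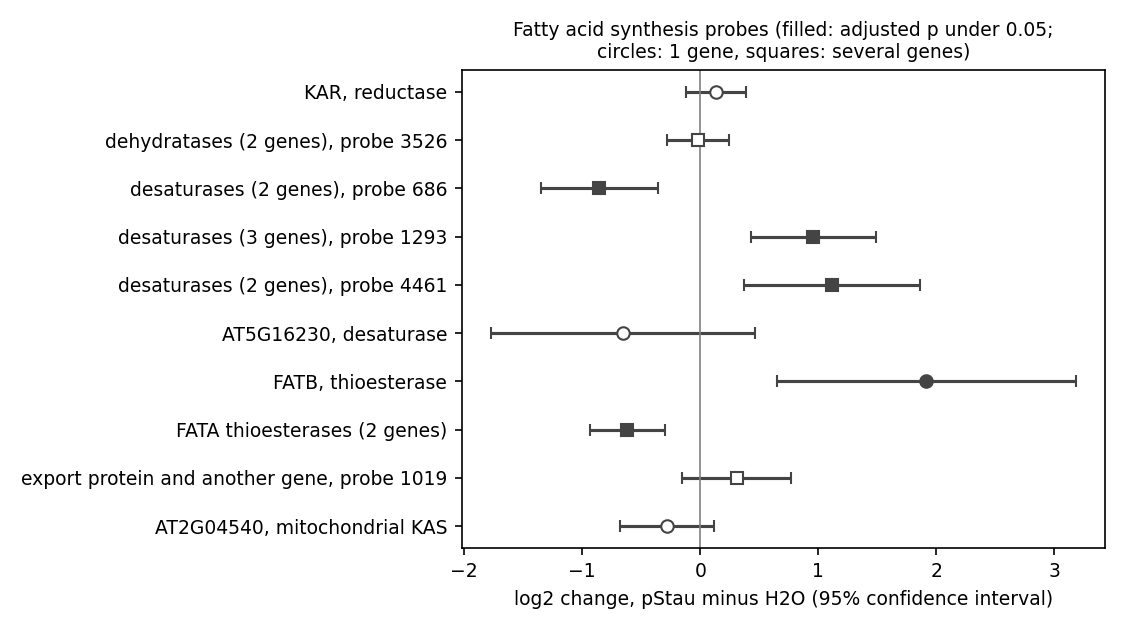
Normalized log2 change, pStau minus H2O, with its 95% confidence interval for 10 probes of fatty acid synthesis, circles for probes of 1 gene and squares for probes of several genes, filled where the limma adjusted p was under 0.05. FATB lies at 1.92 and the probe of both FATA genes at -0.62, and the desaturase probes lie on both sides of 0.

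Genes with a level pattern like those of the members were looked for among 529 other probes with 1 gene that were above 0 on all 12 arrays. For FATB the highest Pearson's r of normalized log2 levels over the 12 arrays were those of AT2G26680 (0.83), AT4G24840 (0.82), FBL17, an F-box protein of the cell cycle (0.82), AT1G51080 (0.80) and AT4G20300 (0.80). After the group means were taken out, the same 5 had r from 0.52 to 0.65. For KAR they were AT3G44570 (0.74), AT4G37230 (0.69), AT3G57120 (0.69), AT3G52070 (0.68) and AT5G52660 (0.67), with r from 0.63 to 0.82 after the group means were taken out. These values describe 12 arrays that share array sets and scaling, and as deposited 2 of the 5 for FATB and 1 of the 5 for KAR were again among the 5 highest. On deposited log2 values the same 5 had r from 0.18 to 0.62 for FATB and from 0.26 to 0.84 for KAR. Between FATB and KAR r was 0.13 over the 12 arrays.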

How the data were processed

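Array intensity values were used as the authors deposited them, in 1 table of 3439 probes. Their unit, background correction, scaling, scanner and dyes are not given in the sources used here, and they were taken as linear. Probe names come from the platform annotation, which may be dated, with symbols refreshed from the RefSeq table of TAIR10.1. Of the probes, 692 have 1 gene, 870 several and 1877 none, and 690 of the 692 matched that table.

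Array medians differed 2.87-fold, so positive values were quantile normalized. The floor was the 1st percentile of these values (0.0167), to which zeros and anything lower were raised, and levels are log2. Leaving out 183 probes at 0 throughout left 3256. The test was two-sided, with limma 3.58.1 (lmFit, eBayes; R 4.3.3), with Benjamini-Hochberg adjustment over all tested probes and a threshold of 0.05. The within-array ratio used deposited values with a floor per array at the same percentile, and an exact permutation test in scipy 1.17.1 under Python 3.11.15. Percentiles rank a probe within its array. Figures were drawn with matplotlib 3.10.9. The fit and the exact test were tested on simulated data. There the fit recovered 62% of 2-fold changes and 33% of 1.5-fold changes, with 4 false calls among 99. A probe that did not pass may thus have changed by such amounts where its confidence interval includes them. In the main fit, which takes the arrays as independent, the intervals of AT5G16230, AT2G04540 and probe 1019 included a 1.5-fold change. Those of KAR (0.921 to 1.31 of the water level) and probe 3526 (0.824 to 1.18) did not. The number of arrays limits the precision.

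The members, lists and normalization were chosen with earlier results of these data known. The text names both members, every measured gene of the lists and, for each member, the 5 genes with the most similar levels. In the pairing check, a pStau and an H2O array with 1 number deviated from their group means together, with Pearson's r of 0.31 to 0.54 for the 6 numbers against a minimum of 0.1. The numbers were therefore read as pairs, whose source the labels leave unstated, in the comparisons by number, the replicate block and the sign-flip test. The main limma fit and the exact permutation test did not use these pairs. Alternatives covered scaling, low values, the replicate block, array sets and arrays left out.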

Additional observations from a re-analysis of the deposited data

Results flagged for a closer look

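In H2O, the log2 ratio of FATB to KAR on array 4 lay far from the other 5 arrays, the gap to its neighbour taking up 0.699 of the range of the 6, past the critical value for 6 arrays. It was 3.18 below the group mean, and the deposited FATB intensity there was 0.00209, while KAR, at 1.19, was close to the other H2O arrays. The normalized level of FATB alone did not pass this limit. In pStau, probe 1019, of FAX1 and another gene, stood alone on array 2 at a normalized log2 level of -4.20, its nearest neighbour being -3.17, which is 0.824 of that range. Chance passes about 5% of groups, and 2 of 24 groups examined passed.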

How the results depend on the processing

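FATB kept its sign under every setting tried. Its log2 change was 1.17 as deposited and 1.16 with an equal total per array, where it did not pass. It was 1.92 with array sets as a random block or averaged, with or without the set as a block, and 2.02 without arrays 5 and 6, again not passing. Leaving out 1 array, or 1 number of both groups, gave 1.39 to 2.23, and the call ended without pStau array 3 or without number 1, 4, 5 or 6 (adjusted p up to 0.0704). Its probe was among the dimmest 25%, so it was not tested when those were left out. KAR was at -0.055 as deposited, -0.069 with an equal total, 0.81 and passing in median-centred arrays, and -0.089 without arrays 1 and 2. The FATB to KAR ratio passed on the quantile-normalized scale (1.78) and with cyclic loess (2.17), and ranged from 0.56 to 1.52 with an array or number left out, passing without pStau array 2, H2O array 3 or number 2. Neither probe was at 0 on any array, so no array was left out for that reason. Members called were 2 in median-centred arrays. As deposited and with an equal total the 1 called was AT5G16230, lower, in place of FATB. They were 0 of 1 without dim probes and 0 of 3 in limma with array sets as a random block, averaged, averaged with a block, or without arrays 5 and 6 (unadjusted p under 0.05 for 0, 0, 1, 1 and 0 members). With an array or number left out they were 0 to 1. All probes called were 1808 with an equal total, 524 with a random block, 484 without arrays 3 and 4 and 515 without arrays 5 and 6. With array sets averaged limma called 3 probes, and 0 with the set also as a block, where 870 had an unadjusted p under 0.05. They were 743 to 1250 with an array or number left out. Signs also turned for probe 1019 (-0.93 as deposited, -0.95 with an equal total, -0.067 median-centred), probe 4461 (-0.49 and -0.51 in the first pair of these), AT5G16230 (0.17 without arrays 5 and 6) and probe 3526 (0.15 median-centred, 0.033 with cyclic loess, 0.021 with zeros ranked, 0.043 without arrays 3 and 4, 0.033 without arrays 5 and 6, and -0.10 to 0.046 with an array or number left out), which was called lower as deposited (-0.72) and with an equal total (-0.73). With the replicate block the adjusted p was 0.0279 for FATB and 0.453 for KAR, the ratio's exact p was 0.0625, 1279 probes were called, and none of the calls of these members changed. The averaged fit with a block, the numbers left out and the ratio without a floor (1.63) were added after seeing the data. The cause of these differences was not tested.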
